A study of Danio rerio with 6 samples.

Results

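Transcripts of 3 Notch receptor genes (notch1a, notch1b, notch3), 4 Delta ligand genes (dla, dlb, dlc, dld) and 3 her genes (her4.2, her6, her9) were followed in dissected zebrafish eye tissue. The genes were taken by name, and every probe set annotated to exactly 1 of them was kept. All 10 had at least 1 probe set. They were represented by 15 probe sets among 15502, and the named probe sets covered 8793 genes in all. The genes notch1b, notch3, dla, dld, her6 and her9 had 1 probe set each, notch1a, dlb and her4.2 had 2 and dlc had 3. Where a gene had several, they are numbered from the brightest. The study compared 3 pools of retina with the retinal pigment epithelium (RPE) attached against 3 pools of retina alone. RPE is the pigmented cell layer behind the photoreceptors. Both groups came from wild-type AB embryos at 52 hours post fertilization, without any treatment, and each pool held 10 dissected tissues. Each pool was read on 1 Affymetrix zebrafish array, from 33 ng of RNA.

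Notch signalling passes between cells that touch. A Delta ligand on one cell binds a Notch receptor on its neighbour, the receptor is cut by proteases, and its intracellular part enters the nucleus and switches on her genes, which encode basic helix-loop-helix repressors of the hes family. Those repressors hold down proneural genes, and in the growing retina the pathway keeps part of the dividing cells from becoming neurons at once. Several members are also used outside the nervous system, for example in blood vessels.

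Array medians were 73.2 to 74.5 in retina with RPE and 68.7 to 69.6 in retina. The label of the tissue was checked against genes of RPE and melanin. Of 13 listed genes 7 were measured. All 7 were called higher with RPE attached (adjusted p under 0.05, limma), where 19.4% of all genes were. Their summed intensity was 2756 to 3848 in retina with RPE against 525 to 601 in retina. The amount of RNA was the same for each pool (33 ng), so the part of it from retina can be smaller with RPE attached. In pooled tissue, such a smaller retinal part, fewer cells of a type and less RNA per cell cannot be told apart.

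With the RPE attached, the receptor notch1b rose, the ligands dla, dlb and dlc fell by their brightest probe sets, and the target her4.2 fell by both of its probe sets. Under 14 other settings of the fit, the call of dla held in 5, that of dlc in 7 and that of dlb in all 14. The ligand dld, the targets her6 and her9 and the receptor notch3 were not called. A probe set was called at a Benjamini-Hochberg adjusted p under 0.05 in limma, adjusted over all 15502 probe sets. Of the 15 probe sets 8 were called, 3 higher and 5 lower, which is 53.3%. Of all probe sets 34.5% were called, 19.0% higher and 15.6% lower. Taking the brightest probe set per gene, 1 of the 10 genes was higher and 4 were lower, against 19.4% and 17.0% of all 8793 genes. The median log2 change over the 15 probe sets was -0.02, and over all probe sets 0.04. Arrays of the groups did not overlap in 10 of the 15 probe sets, 4 higher and 6 lower, where 49.5% of all probe sets did not overlap (28.7% higher and 20.8% lower). With counts this small, the shares describe these genes and are not set apart from the array as a whole.

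**Figure D1:**
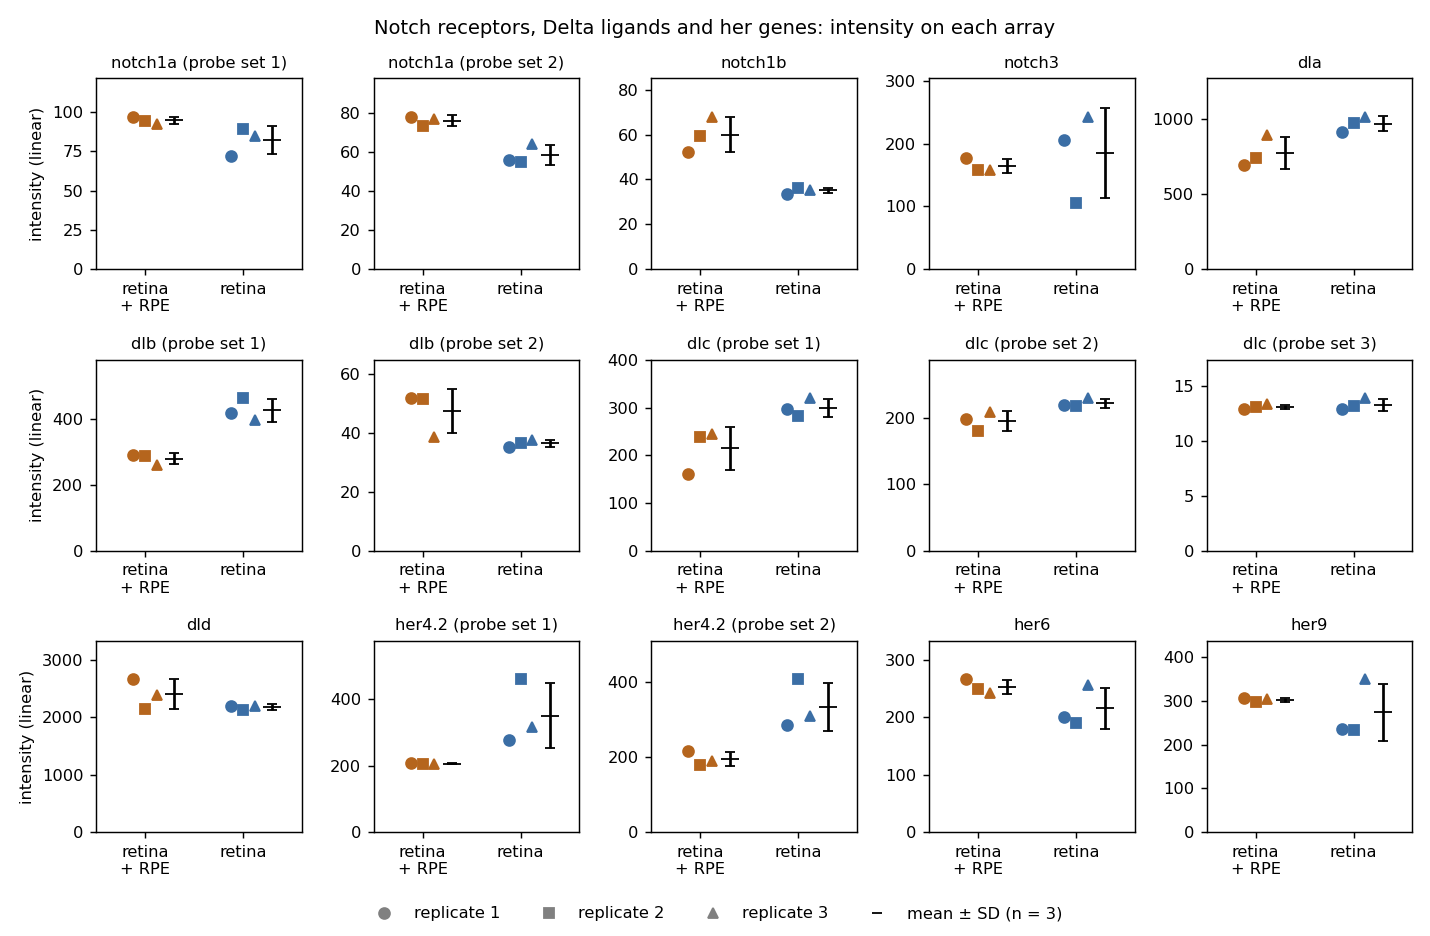
Intensity on a linear scale, from 0, of each of the 15 probe sets on each array, with retina with RPE on the left and retina on the right of each panel. Symbols mark the replicates, and bars give the mean ± SD of 3 arrays. The groups of notch1b and of both her4.2 probe sets stand apart, while notch3, her6 and her9 are spread widely over the retina pools.

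Among the receptors, notch1b, 1 of the pair of zebrafish genes related to mammalian Notch1, changed most. Its intensity was 52.4, 59.5 and 68.0 in retina with RPE, against 33.7, 36.4 and 35.2 in retina. Every pool with RPE was above every retina pool. The rise was 1.70-fold, and its 95% interval ran between 1.44 and 2.00 (limma, adjusted p = 8.8e-04).

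The other gene of that pair, notch1a, gave a less even picture. Its brighter probe set read 97.1, 94.6 and 92.3 in retina with RPE, against 72.3, 89.5 and 84.5 in retina. The groups did not overlap, but the log2 change of 0.21 (95% interval -0.01 to 0.43) was not called. The dimmer probe set read 78.0, 73.0 and 76.9 in retina with RPE against 55.9, 54.6 and 64.2 in retina, and its log2 change of 0.39 ± 0.0922 (SE) was called (adjusted p = 0.0107, limma). Both notch1a probe sets have names that end in marks for probes shared with, or able to bind, other transcripts. The names of the second dlc probe set and of the brighter her4.2 probe set end in such marks too. Cross-hybridization was not tested.

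The receptor notch3, used in neural progenitors and in the mural cells of vessels, was 177, 157 and 159 in retina with RPE, against 206, 105 and 243 in retina. The retina pools lay on both sides of the pools with RPE. The log2 change was -0.08 with an interval of -0.64 to 0.47. Its SE of 0.250 compares with a median SE of 0.0997 over all probe sets. Without retina replicate 2, the low array, the change was -0.45 and was called (adjusted p = 0.0118, limma). Without retina replicate 1 or 3 it was 0.04 or 0.16 and was not called, so a single pool decides its direction.

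Of the Delta ligands, dlb fell most by its brightest probe set. That probe set read 289.6, 289 and 259 in retina with RPE, against 418, 464 and 395 in retina. The groups were well apart, with a log2 change of -0.61 ± 0.0946 (SE, adjusted p = 0.00153, limma). The second dlb probe set went the other way. It was dim, at 52.0, 51.8 and 38.7 in retina with RPE against 35.2, 36.7 and 37.7 in retina. Its log2 change of 0.37 ± 0.120 (SE) was called (adjusted p = 0.0393, limma). That call held only without retina with RPE replicate 3 (0.00921) among the 6 left-out arrays. The adjusted p was 0.134 without retina with RPE replicate 1, 0.143 without replicate 2, 0.0945 without retina replicate 1, 0.0595 without replicate 2 and 0.0607 without replicate 3. The direction of dlb thus depended on the probe set.

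The ligand dla, the zebrafish deltaA gene of neural progenitors, read 693, 738 and 896 in retina with RPE against 914, 975 and 1015 in retina. Its log2 change was -0.33 ± 0.109 (SE, adjusted p = 0.0412, limma). That call stood close to the threshold. It was lost without any one of 5 of the 6 arrays, at adjusted p = 0.142 without retina with RPE replicate 1, 0.128 without replicate 2, 0.0505 without retina replicate 1, 0.0698 without replicate 2 and 0.100 without replicate 3. It was kept without retina with RPE replicate 3, at 0.0185.

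The ligand dlc was measured by 3 probe sets. The brightest read 162, 238 and 244 in retina with RPE, against 296, 282 and 320.4 in retina. Replicate 1 of retina with RPE was the low one. The log2 change was -0.50 ± 0.149 (SE, adjusted p = 0.0263, limma), and without that array it was -0.31 (0.0537). The call was also lost without retina replicate 1 (0.0538) or 3 (0.0707). The second probe set read 198, 179 and 209 in retina with RPE against 219, 217 and 229.6 in retina, lower in every pool but not called at -0.18 (interval -0.38 to 0.01). The third, near the bottom of the scale at 12.9 to 13.3 in retina with RPE and 12.8 to 13.9 in retina, changed by -0.02 and carried no visible difference.

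The ligand dld, the zebrafish deltaD gene, read 2659, 2135 and 2393 in retina with RPE against 2200.4, 2115 and 2202 in retina. The groups overlapped, and the log2 change of 0.14 (interval -0.08 to 0.35) was not called. That interval leaves out a fall of the size measured for the brightest probe sets of dlb and dlc.

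The target her4.2 belongs to a zebrafish group related to mammalian Hes5, a repressor that answers directly to Notch. Its brighter probe set read 207, 204 and 204 in retina with RPE, against 276, 459.7 and 315 in retina. The second read 215, 178 and 189 in retina with RPE, against 284, 406 and 308 in retina. Pools with RPE were lower throughout, and retina replicate 2 was the highest array in both. The brighter probe set was 1.67-fold lower with RPE, a log2 change of -0.74 (interval -1.10 to -0.38, adjusted p = 0.00709, limma). The second was 1.70-fold lower, a log2 change of -0.77 (interval -1.07 to -0.46, adjusted p = 0.00272, limma). Without retina replicate 2 the log2 changes were -0.52 and -0.61, and both were still called.

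The gene her4.2 has near copies. The current gene list holds 5 her4 genes side by side on 1 chromosome, and short probes can bind more than one of them. In all, 6 probe sets were annotated to her4 genes, 2 of them to several copies at once. Of the 6, 5 were called lower and 1, the dim second probe set of her4.5, was called higher. Over all probe sets 15.6% were called lower and 19.0% higher. The brighter her4.5 probe set read 99.7, 93.4 and 89.0 in retina with RPE, against 108, 164 and 121 in retina. Its log2 change was -0.46 ± 0.142 (SE, adjusted p = 0.0323, limma), a call lost without any one pool of retina with RPE (0.0595, 0.0927 and 0.110 without replicates 1, 2 and 3) or without retina replicate 2 (0.0598), after centring on ribosomal protein genes (0.0722) and with a pseudocount of 16 (0.0654). The pair of probe sets shared by several copies changed by -0.66 ± 0.123 and -0.36 ± 0.118 (SE). All 5 lower probe sets were highest in retina replicate 2. These 6 readings share sequence and pools, so they are not independent measures of her4.2.

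The other her genes, grouped here as targets, did not follow her4.2. Whether they answer to Notch in this tissue was not tested. The gene her6, related to mammalian Hes1, read 266, 249.8 and 243 in retina with RPE, against 200.4, 191 and 257 in retina, with a log2 change of 0.24 (interval -0.02 to 0.50). The gene her9, related to mammalian Hes4, read 306, 297 and 304 in retina with RPE, against 237, 234 and 349.5 in retina, with a log2 change of 0.17 (interval -0.15 to 0.49). Neither was called, and in each gene retina replicate 3 stood above the other retina pools. Without that array her6 changed by 0.37 (adjusted p = 0.0185, limma) and her9 by 0.36 (0.0162), and both were called higher. The lack of a call for her9 therefore rests on 1 retina pool. That for her6 rests on the same pool and also on the scaling. With all 6 arrays it was called after centring on ribosomal protein genes (0.33, adjusted p = 0.0449, limma).

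**Figure D2:**
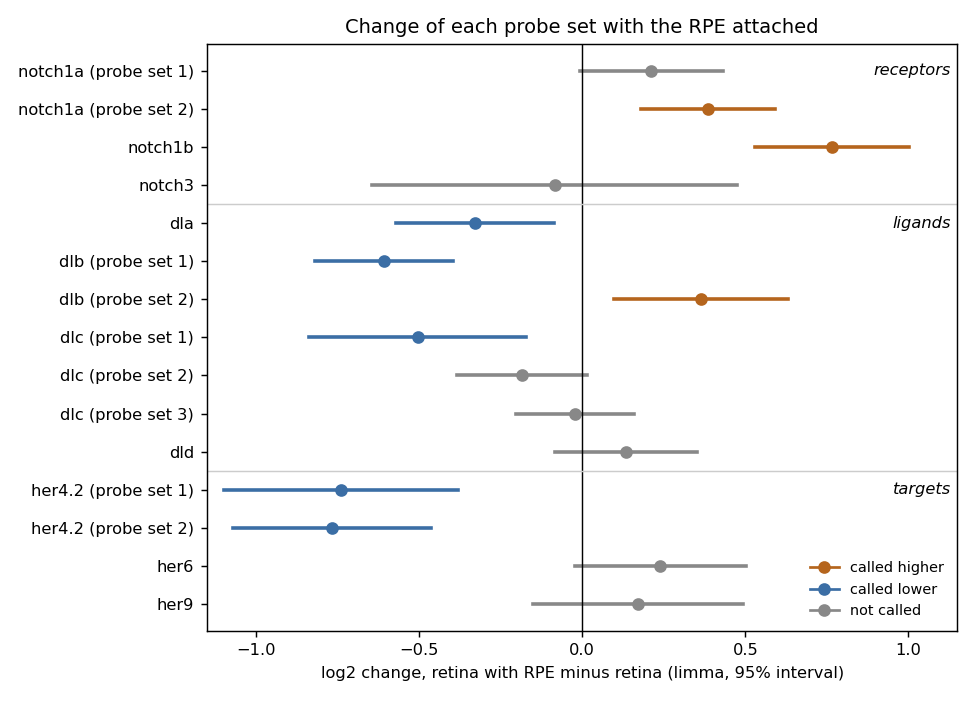
Log2 change of each probe set, retina with RPE minus retina, with its 95% limma interval, in rows grouped as receptors, ligands and targets. Orange marks a called rise, blue a called fall and grey no call. The notch1b rise of 0.76 and the her4.2 falls of -0.74 and -0.77 are the largest changes, and the probe sets of dlb lie on opposite sides of 0.

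The genes also differed in how evenly the pools read. The highest over the lowest array was wider among retina pools than among pools with RPE in 6 genes, and wider among pools with RPE in the other 4. In notch3 this ratio was 1.12 in retina with RPE and 2.32 in retina. For the brighter her4.2 probe set it was 1.02 in retina with RPE and 1.67 in retina, and for her9 1.03 and 1.49. The 4 genes with the wider spread with RPE were notch1b, dla, dlc and dld, with dlc at 1.51 in retina with RPE and 1.14 in retina. Retina replicate 2 was low in notch3 and high in her4.2, and retina replicate 3 was high in notch3, her6 and her9. These are values of single pools, and they were not tested.

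Whether genes of one role changed by unequal amounts was read from ratios within each array, which no rescaling of a whole array can alter. The brightest probe set of each gene was used, and 12 pairs were compared, 3 of receptors, 6 of ligands and 3 of targets. Each pair was written with the gene of the higher log2 change first, and genes recur among the pairs. In 6 pairs the log2 ratios of the groups did not overlap. Ratios of other gene pairs were not taken, and of single probe sets 49.5% did not overlap. An exact permutation test of 3 arrays against 3 (2-sided) gives these p = 0.1, the smallest it can give, and 0.2 after adjustment over the 12 pairs. With so few arrays this test cannot reach 0.05 for any pair, so the ratios are given as a description. The widest shift was that of her6 over her4.2, with a log2 ratio of 0.30 ± 0.0590 in retina with RPE and -0.67 ± 0.521 in retina (SD, n = 3). The ratio of her9 over her4.2 was 0.56 ± 0.0157 in retina with RPE and -0.35 ± 0.573 in retina. Among ligands, dld over dlb was 3.10 ± 0.182 in retina with RPE and 2.35 ± 0.149 in retina, and dld over dlc and over dla were apart as well. Among receptors, notch1b over notch1a was -0.67 ± 0.225 in retina with RPE and -1.22 ± 0.107 in retina. The pair her6 over her9 moved by only 0.07 between the groups.

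**Figure D3:**
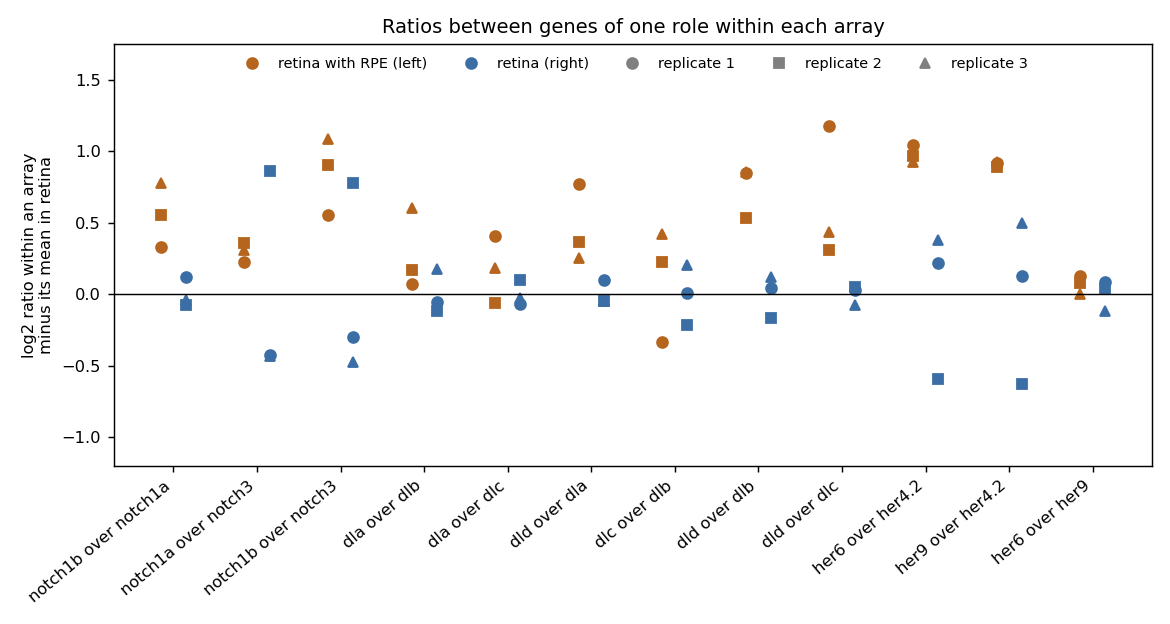
Log2 ratio between the brightest probe sets of 2 genes of one role within each array, minus the mean of that ratio over the retina pools. Orange points on the left are retina with RPE, blue points on the right retina, and symbols mark the replicates. The ratios of her6 and her9 over her4.2 and of dld over dlb are higher in all 3 pools with RPE than in any retina pool.

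Further genes of the pathway were taken from lists by role. Of 120 listed genes 56 were measured, the 10 described above included. Of the 56, 10 were higher and 14 lower by their brightest probe sets, which is 42.9% called, where 36.4% of all genes were. Their median log2 change was -0.02 and that of all genes 0.04.

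Receptors and ligands other than the 7 above were few. The receptor gene notch2 read 96.4, 92.3 and 91.2 in retina with RPE, against 58.6, 52.9 and 58.0 in retina, a log2 change of 0.72 ± 0.0846 (SE, adjusted p = 3.9e-04, limma). Its other probe sets, at -0.04 and 0.15, were not called. The Jagged ligand genes jag1a, jag1b and jag2b changed by -0.04, 0.11 and -0.15, and none was called. Of the genes that activate ligands 2 were measured, the ubiquitin ligase gene mib1 and the endocytic adaptor gene epn1a, and neither was called. A dimmer mib1 probe set was called higher, at 0.50.

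Among 11 genes of receptor glycosylation and cleavage, 2 rose and 2 fell, which is 36.4% called, the same share as over all genes. The sheddase gene adam17a was 137 ± 10.2 in retina with RPE and 271 ± 55.3 in retina (SD, n = 3), a log2 change of -0.96 ± 0.145 (SE), and adam10b, of the same protease family, changed by -0.39, which was not called after centring on ribosomal protein genes (-0.30). By contrast psen2, which encodes a catalytic subunit of gamma-secretase, rose by 0.61, and furinb, a proprotein convertase gene, by 0.46. Of 9 genes of the nuclear complex and of corepressors, 2 rose and 4 fell, which is 66.7% called. The corepressor gene ctbp1 was 281 ± 26.1 in retina with RPE and 657 ± 112 in retina, a log2 change of -1.22 ± 0.126 (SE). The acetyltransferase genes crebbpa and crebbpb changed by -0.61 and -0.51, and the groucho-type corepressor gene tle2a by -0.57. The 2 that rose changed less, ncor1 by 0.38 and the groucho-type gene tle3a by 0.41 (adjusted p = 0.0306 and 0.0252, limma). A second, dim crebbpb probe set was not called, at 0.12.

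Of 8 genes of antagonists and turnover, 1 rose and 2 fell, which is 37.5% called, where 36.4% of all genes were. The gene nrarpa encodes an ankyrin repeat protein that Notch induces and that damps the pathway. Its brightest probe set read 947, 973 and 897 in retina with RPE, against 2108, 2058 and 1678 in retina, and the groups were far apart (log2 change -1.05 ± 0.104, SE, adjusted p = 1.9e-04, limma). The other nrarpa probe sets differed from it and were much dimmer. Of those 3, 1 was called higher by 0.76, with means of 55.0 in retina with RPE and 32.5 in retina. Another was called higher by 0.34 (means 38.2 and 30.0), and 1 was not called at -0.08 (means 94.9 and 101). The direction of nrarpa thus depended on the probe set, and only the brightest was called lower. In the same list dvl2, a Wnt transducer, fell by 0.61 on the log2 scale, and the ubiquitin ligase gene nedd4l rose by 0.48.

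Among 15 her, hes and hey genes, 3 rose and 3 fell, which is 40% called, where 36.4% of all genes were. The hey genes, targets of Notch in vessels and elsewhere, moved apart. The gene hey2 read 46.2, 40.3 and 44.4 in retina with RPE, against 27.0, 26.0 and 31.6 in retina, a log2 change of 0.63 ± 0.102 (SE, adjusted p = 0.00183, limma). In contrast hey1 changed by -0.47 ± 0.131 (SE, adjusted p = 0.0202), a call lost without retina with RPE replicate 1 (0.0781) or 3 (0.0788) and after centring on ribosomal protein genes (0.0604). The gene her7, known from somite formation, rose by 0.49 at a dim level of 27.3 ± 4.73 in retina with RPE and 19.3 ± 0.296 in retina. Opposite to her4.2, her15.2 was called higher, by 0.45 ± 0.149 (SE, adjusted p = 0.0426, limma), with groups that overlapped. A list of 18 proneural genes and other factors of early neurons had 1 gene higher, 7 lower and 10 not called, where 19.4% of all genes were higher and 17.0% lower. The list is mixed: it holds basic helix-loop-helix genes and also genes such as stmn2a, of a microtubule regulator, at -0.50. The proneural genes atoh7, needed for retinal ganglion cells, and ascl1a changed by -1.18 ± 0.117 and -0.71 ± 0.147 on the log2 scale (SE). The higher gene of that list was atoh1a, at 0.49 ± 0.104 (SE), with means of 47.8 in retina with RPE and 34.2 in retina.

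**Figure D4:**
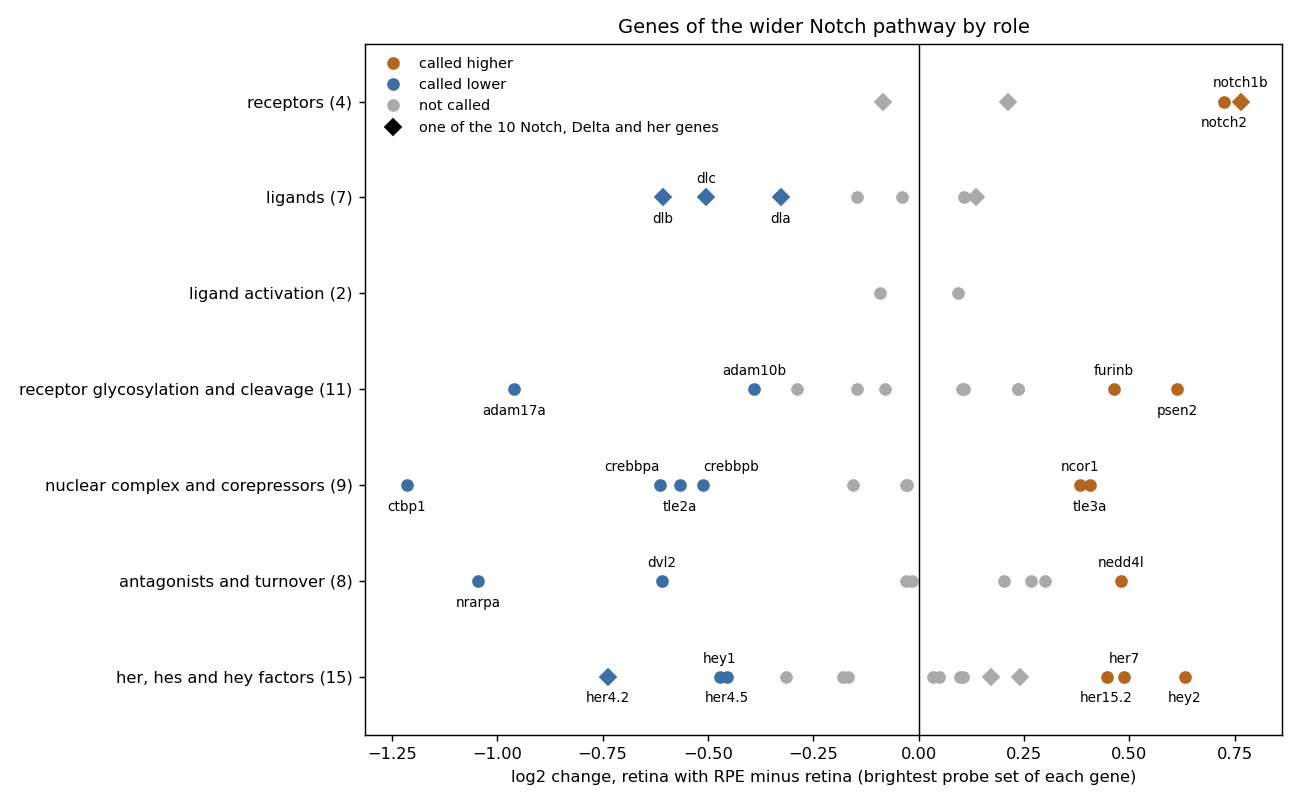
Log2 change, retina with RPE minus retina, of the brightest probe set of 56 pathway genes in 7 rows by role, with the number measured in parentheses. Diamonds are the 10 Notch, Delta and her genes. Orange marks a called rise, blue a called fall, both with the gene's name, and grey no call. Both directions occur in every row with a called gene, except that the called receptors rose and the called ligands fell.

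Markers of other cell types moved in the same pools, and their counts stand beside 19.4% higher and 17.0% lower over all genes. Of 8 genes of vessel endothelium, which uses notch1b, dlc and hey2, 4 were called higher and 1 lower, and their summed intensity was 465 to 509 in retina with RPE and 369.8 to 421 in retina. The gene plvapb rose by 0.91, flt4 by 0.77 and cldn5a changed by -1.12. Of 4 genes listed for mural cells other than notch3, 2 were higher, foxc1a by 0.83 and foxc1b by 0.67. The other 2, acta2 at 0.16 and tagln at 0.22, were not called. The sum of the 4 was 239 to 302 in retina with RPE and 167 to 197 in retina. To that sum foxc1a gave means of 124 in retina with RPE and 67.9 in retina. Which cells the foxc1a and foxc1b readings came from was not tested. All 18 called among 22 genes of mesenchyme and cartilage were higher, led by col2a1a at 1.82, and their sum was 1557 to 2094 in retina with RPE and 981 to 1039 in retina. Of 9 neural crest and pigment cell genes 7 were higher, led by gch2 at 2.89, with sums of 1226 to 1411 in retina with RPE and 446 to 508 in retina. Of 14 skin and cornea genes 7 were higher and 1 lower, led by krt8 at 1.90, with sums of 957 to 1094 in retina with RPE and 477 to 504 in retina. Of 8 leukocyte genes 5 were higher, led by coro1a at 1.07, of 17 skeletal muscle genes 7 were higher, led by eno3 at 1.37, of 8 erythrocyte genes 3 were higher and 1 lower, and of 3 lens genes 1 was higher. The part of these cells in the rises of notch1b, notch2 and hey2, or in the falls of dlc (brightest probe set) and hey1, was not tested.

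Retinal progenitors and Mueller glia, the cells in which her4 genes are known to act, were read from 17 genes. Of these 4 were higher, 2 lower and 11 not called, where 19.4% of all genes were higher and 17.0% lower. The sum, in which bright genes weigh most, was 41331 to 43487 in retina with RPE and 43098 to 45307 in retina. The groups thus overlapped. The progenitor gene sox2 changed by -0.74 ± 0.171, the proliferation gene mki67 by 0.55 ± 0.0967 and cahz, a carbonic anhydrase gene also listed for erythrocytes, by -0.63 ± 0.157 (log2, SE). These were the largest called changes, so both lower genes are named but only mki67 of the 4 higher ones. The part of these cells, or of the early neurons of the proneural list above, in the falls of dla, dlb and her4.2 was not tested.

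Level and class of probe set moved with the calls as well. Probe sets were split into 3 equal bins by mean level. The median log2 change was -0.12 in the bright bin, where 11.2% rose and 28.7% fell, and 0.10 in the middle bin, where 26.1% rose and 14.0% fell. The probe sets called lower, those of dla, dlb, dlc and her4.2, all lie in the bright bin, and the 3 called higher, of notch1a, notch1b and dlb, in the middle bin. Identifiers on this array carry a letter, which is A for both her4.2 probe sets and S for the other 13. In the bright bin, 33.9% of A probe sets and 22.3% of S probe sets fell. In the wider pathway, the falls of adam17a, adam10b, ctbp1, crebbpa, crebbpb, tle2a, nrarpa and dvl2 were read from A probe sets. Those of hey1 and her4.5 were read from S probe sets. The rises of notch2, psen2, hey2, her7, her15.2, ncor1 and tle3a were read from S probe sets, and those of furinb and nedd4l from A probe sets. The part of level and class in these changes was not tested beyond the alternative scalings.

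Under quantile normalization the changes of notch1b, the brighter dlb and both her4.2 probe sets were called in the same direction, as they were under cyclic loess and after centring on ribosomal protein genes. Each of these scalings ended the calls of dla and dlc. The call of the second notch1a probe set held under all 3, and that of the second dlb probe set only after the centring. The ligand dld was called higher under quantile normalization (0.29, adjusted p = 0.0414, limma), and her6 after centring on ribosomal protein genes (0.33, 0.0449).

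**Figure D5:**
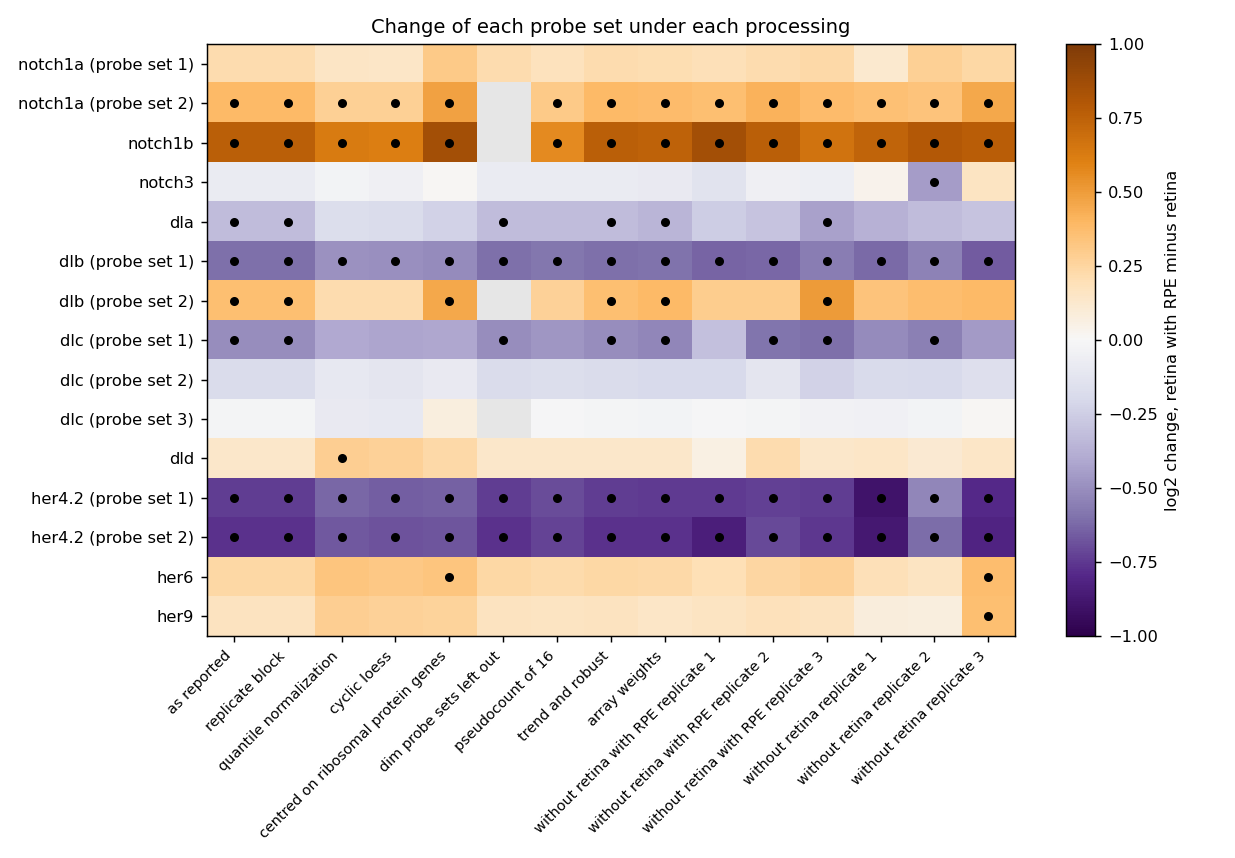
Log2 change of each probe set (rows), retina with RPE minus retina, as reported and under 14 other settings (columns). Colour runs from purple (lower with RPE) to orange (higher with RPE), a black point marks an adjusted p under 0.05, and light grey marks probe sets left out of a fit. Points run across every fitted setting for notch1b, the second notch1a probe set, the first dlb probe set and both her4.2 probe sets.

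The series design estimated RPE levels by deducting the retinal contribution from retina with RPE. The yields behind that deduction are not used here, so a share of retinal RNA of 0.75 was assumed, with 0.5 as the alternative. By the point values, neither share could be kept for all genes. The deduction gave levels under 0 for dlb, dlc and her4.2 with a share of 0.75, and a level cannot be under 0. The upper 95% limits of those levels were 0.040, 0.550 and 0.074, above 0. With a share of 0.5 those genes came to 0.313, 0.410 and 0.199 times the retina level. But ctbp1, atoh7 and nrarpa (brightest probe sets), at 0.431, 0.443 and 0.484 of their retina intensity, would then fall under 0. The upper 95% limits of the ratios of ctbp1, atoh7 and nrarpa were 0.523, 0.531 and 0.569, above 0.5 and under 0.75. For notch1b the same arithmetic gives 3.80 times the retina level with a share of 0.75 and 2.40 times with 0.5. These figures are not taken as measured RPE levels.

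Genes whose log2 profile over the 6 arrays was most like that of a called gene are given as a description, over 8793 genes. For notch1b they were si:ch1073-287p18.1 and mybpha, both at Pearson r = 0.995, and 430 genes exceeded r = 0.95. For the brightest dlb probe set they were slc7a3a and gadd45ab, both at 0.997, with 384 genes above 0.95. For her4.2 they were anos1b (0.991) and eaf2 (0.989), with 111 above 0.95. For dla they were rab11al (0.986) and sac3d1 (0.979), and for dlc tmem256 (0.996) and tmem178a (0.985), with 16 and 20 genes above 0.95. All points of such a profile come from the same 6 arrays, and the genes described were those called between the groups. Any gene with a like step between the groups can thus give a high r. Shared regulation was not tested.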

How the data were processed

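Intensities of 15617 probe sets on 6 arrays were used as deposited, on a linear intensity scale that was read from the values. Per the submitters' processing notes, RMA, the affy package and R 2.2.0 were used. The sources used here do not give which arrays were normalized together or in which order. Control probe sets (115) were left out. Names came from the platform annotation, with 1 symbol updated. Of 15502 probe sets, 10795 named 1 gene, 135 several and 4572 none.

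Log2 intensities were fitted by lmFit and eBayes (limma 3.58.1 under R 4.3.3). The 2-sided p-values were adjusted by Benjamini and Hochberg's method across the 15502 probe sets, and 0.05 was the threshold. The fit was tested on simulated data. Intervals are 95% intervals of limma. No detection call was used, so folds of dim probe sets can be understated, and 3 arrays per group limit the precision. The labels call the pools biological replicates. Pathway and marker lists named a gene by its brightest probe set. Up to 4 called genes with the largest changes were named per pathway list and up to 3 per marker list. Further genes named (the Jagged genes, mib1, epn1a, ncor1, tle3a, her15.2, atoh1a) were chosen after their values were seen. The members and lists were chosen with earlier results of these data known. Alternatives were a replicate block, 3 scalings, a filter on dim probe sets, a pseudocount of 16, trend and robust variance, array weights, a gene's median probe set value in place of its brightest, and leaving out each array. No sequence was used. Figures were drawn with matplotlib 3.10.9.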

Additional observations from a re-analysis of the deposited data

How the results depend on the processing

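Of the 15 probe sets 8 were called. Counts were 5 under cyclic loess, 5 with dim probe sets left out (where notch1b and 3 others were not in the fit, so 0 were higher), 5 with a pseudocount of 16 and 5 to 8 without one array. The count of higher probe sets was 2 to 4 without one array. The count of lower ones, 5 as reported, was 3 under quantile normalization, cyclic loess, centring on ribosomal protein genes and the pseudocount, and 3 to 5 without one array. Of the wider pathway, 24 genes were called, against 19 to 25 without one array, with 7 to 12 higher and 10 to 13 lower. With dim probe sets left out, 5 were higher, where 39 of the 56 genes remained in the fit. Centring on ribosomal protein genes left 9 lower.

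Over all probe sets, 5355 were called, against 2951 of 7751 with dim ones left out and 3439 without retina with RPE replicate 3. Higher and lower calls numbered 2938 and 2417 as reported, but 3550 and 1342 after that centring.

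The notch3 change was -0.08, 0.0099 after that centring and -0.45 to 0.16 without one array. The dimmest dlc probe set was at -0.02, at 0.072 after that centring and at -0.046 to 0.011 without one array. The deduced figure for notch1b, 3.80, moved to 2.40 with a share of 0.5, and those of dlb, dlc and her4.2 turned to 0.313, 0.410 and 0.199. By the point values, neither share suits all genes. Where not stated, the cause was not tested.

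With the replicate number as a block, 8 probe sets and 25 pathway genes were called. The replicate numbers are those of the labels. The submitters' sample codes carry the same numbers in retina, but partly other numbers in retina with RPE. The replicate numbers were not taken as pairing the pools. Deviations from group means correlated at 0.175, 0.0786 and 0.130 between pools of the same replicate number. Each pool correlated best with its own replicate number, a hint from the data only. The block changed no call among the 15 probe sets.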
